A study of Rattus norvegicus with 4 samples.

Results

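The genes of TGF-beta and BMP signaling were followed in 2 clones of PC12, the rat pheochromocytoma line used as a neuronal model. The list holds 47 genes chosen by name for their role in the pathway, with earlier results of these data known. Of these, 38 were found under that name among the 25810 genes of the count files. The wtPC12 clone (wild type, low REST) and the hrPC12 clone (high REST, formerly called PC12-27) were each sequenced in 2 libraries, with no treatment, age or engineered allele in the labels of either. Each REST level is represented by 1 spontaneous clone, so that REST and whatever else sets the clones apart cannot be told apart. The labels do not say that the libraries of a clone came from separate cultures, and p values then measure only the spread between these libraries.

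Ligands of the TGF-beta family bind pairs of type II and type I receptor kinases, and the type I receptor phosphorylates Smad proteins that enter the nucleus with Smad4. TGF-betas and activins act mostly through Smad2 and Smad3, while BMPs act through Smad1, Smad5 and Smad9 and switch on the Id genes and Smad6. In the embryo, BMPs from the dorsal aorta help to set the sympathoadrenal lineage, to which chromaffin cells belong, and TGF-beta is known for inducing matrix genes in mesenchymal cells.

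Reads counted on genes numbered from 20975027 to 27246502 per library. Rest, the gene that names the clones, had 43.0 and 132 normalized counts (reads scaled to a common library size) in wtPC12 and 964 and 915 in hrPC12. Its log2 FC (hrPC12 over wtPC12) was 3.42 (SE 0.57, adjusted p = 0.0115 by edgeR), which did not pass the threshold of 0.01 used for calls. SE stands for an approximate standard error, the size of the log2 FC divided by the square root of edgeR's F statistic. Of the chromaffin markers looked up, 5 were lower in both hrPC12 libraries and 1, Ddc, was higher, while the summed level of 7 such genes was 814643 to 952888 normalized counts in wtPC12 and 45708 to 50282 in hrPC12. The summed level of 9 fibroblast and mesenchymal markers was 16319 to 18105 in wtPC12 and 95260 to 100019 in hrPC12, most of it from Thy1 (16186 to 17929) in wtPC12 and from Col3a1 (83801 to 88143) in hrPC12. Thy1 and Dcn were lower in both hrPC12 libraries (log2 FC −0.99 and −3.10), and 7 of the 9 were higher. White blood cell markers summed to 49.4 to 57.0 and 434 to 512 normalized counts, most of the latter from Cd14, while Ptprc had no read in wtPC12 and 1 in hrPC12, and Itgam none in hrPC12. Endothelial markers summed to 95.4 to 115 and 621 to 634, most of the latter from Vwf. The part of these marker genes in the differences described here was not tested. In such RNA from many cells, fewer cells of a type and less RNA per cell cannot be told apart.

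Of the 38 genes, 27 had a mean of at least 5 normalized counts with reads in both clones and were tested, as were 13726 genes in all. An adjusted p under 0.01 was reached by 9 of the 27 and by 13.1% of all tested genes. Because the list was chosen with earlier results of these data known, a larger share among its members is no evidence about the pathway. In hrPC12, 5 of the 27 were higher with an adjusted p under 0.01 (edgeR's quasi-likelihood test, Benjamini-Hochberg over all tested genes), where 5.94% of all tested genes were. These were Tgfb2, Smad3, Chrd, Ltbp2 and Tgfbi, each with a log2 FC above 2, as 4.84% of all tested genes had. Another 4 were lower, where 7.14% of all tested genes were, namely Bmp7, Bmp2, Smad6 and Id1. Bmp7 and Id1 had a log2 FC below −2, as 5.46% of all tested genes had. Bmp7 reached the minimum mean only through wtPC12. At an adjusted p under 0.05 there were 6 higher and 9 lower members, beside 16.1% and 16.3% of all tested genes. In 19 of the 27 the clones did not overlap, with both libraries of one clone above both of the other, or 70.4% of them, against 73.5% of all tested genes. The median log2 FC was −0.12 over the 27 members and 0.06 over all tested genes.

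In every one of the 9 genes called, the direction was the same with any 1 library left out. Without wtPC12 replicate 2, no gene of the whole table passed the threshold in edgeR. In that fit, whose spread came from the hrPC12 pair alone with the lone wtPC12 library assumed to vary alike, the 9 members had adjusted p values from 0.0134 to 0.0426. There an unadjusted p under 0.05 was found for 8 members higher and 9 lower in hrPC12, and DESeq2 called 5 and 5. Of all 13590 genes in that fit, 6798 had such a p and DESeq2 called 3593. Without wtPC12 replicate 1, Chrd, Ltbp2 and Smad6 were lost (highest adjusted p 0.0185), and without hrPC12 replicate 2 Bmp2 was lost (adjusted p = 0.0110).

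**Figure D1:**
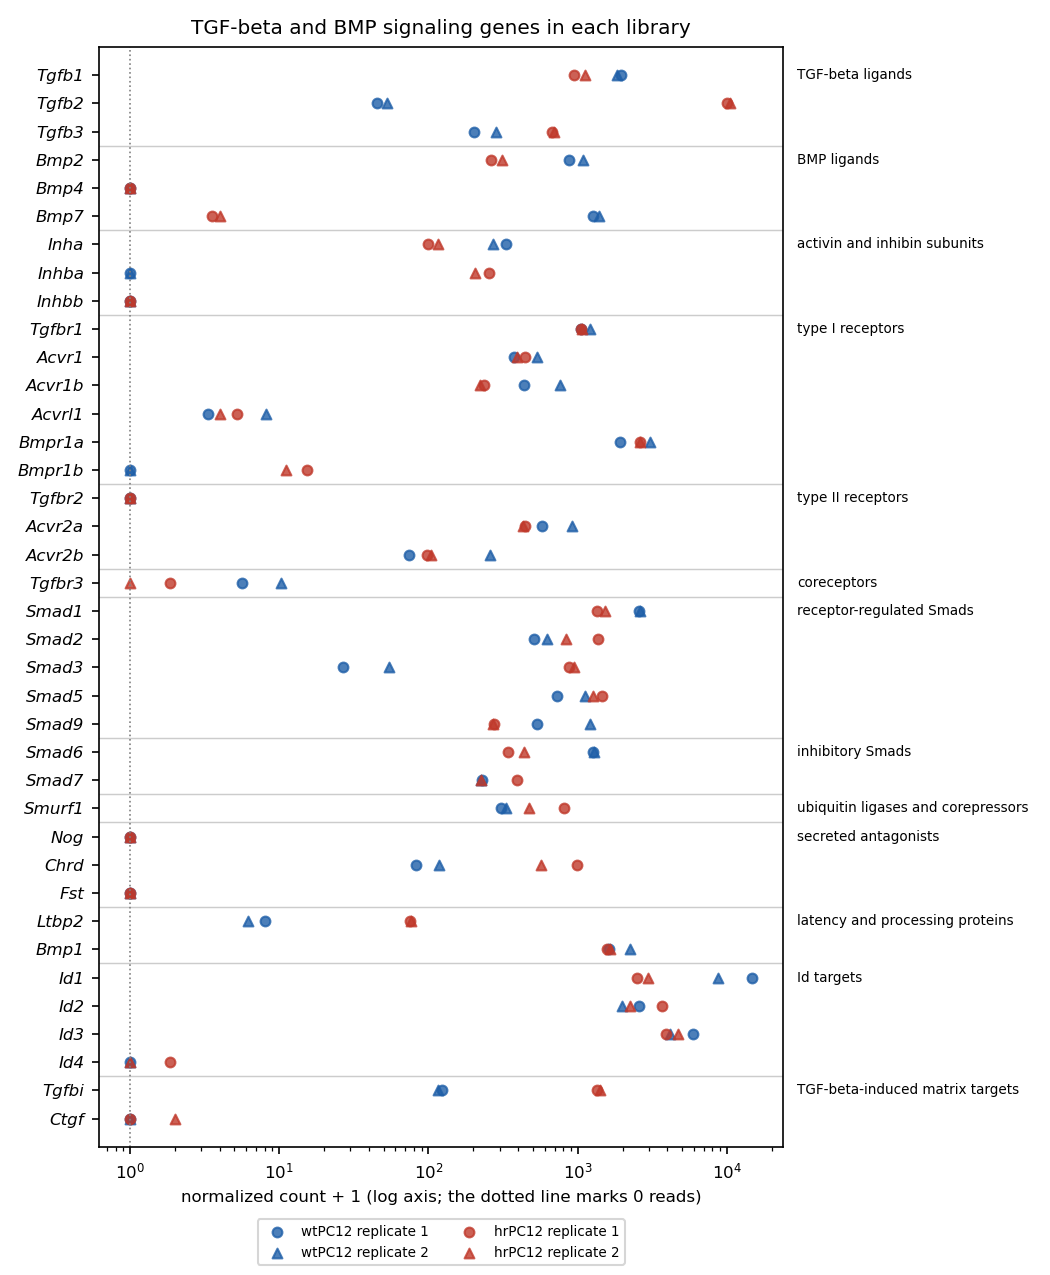
Normalized count plus 1 (log axis) of each of the 38 genes in the 4 libraries, by role, with circles for replicate 1 and triangles for replicate 2, and blue for wtPC12 and red for hrPC12. Tgfb2, Smad3, Chrd, Ltbp2 and Tgfbi lie to the right in hrPC12 and Bmp7 far to the left, while 5 genes sit at 0 reads in every library.

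Among the TGF-beta ligands, Tgfb2 changed most. It had 44.2 and 51.5 normalized counts in the wtPC12 libraries and 10054 and 10520 in those of hrPC12. Both hrPC12 libraries lay far above both of wtPC12, and the libraries of a clone lay close together. The log2 FC was 7.74 (SE 0.23, adjusted p = 0.000243 by edgeR), or 214-fold. Tgfb3 had 201 and 283 normalized counts in wtPC12 and 668 and 689 in hrPC12, a log2 FC of 1.48 (SE 0.28) that did not pass the threshold (adjusted p = 0.0167). It passed when every gene with a read was tested (adjusted p = 0.00745 by edgeR). Tgfb1, in contrast, had 1941 and 1839 in wtPC12 and 951 and 1126 in hrPC12 (log2 FC −0.86, SE 0.20, adjusted p = 0.0276). Both hrPC12 libraries lay above those of wtPC12 in Tgfb2 and Tgfb3 and below them in Tgfb1, and 73.5% of all tested genes were likewise without overlap.

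The BMP ligands tested both fell in hrPC12. Bmp7, an inducer of bone and kidney development that is also made by neural tissue, had 1263 and 1396 normalized counts in wtPC12 and 2.54 and 3.04 in hrPC12, which are 3 reads in each library. The ratio of the summed counts was 482, with a 95% counting interval from 221 to 1315 that covers counting error only (exact binomial). The fitted log2 FC was −8.84 (SE 0.34, adjusted p = 0.000266 by edgeR). Bmp7 reached the minimum mean only through its reads in wtPC12, so that p adds no support to the difference. In Bmp2 the difference was smaller, with 875 and 1092 normalized counts in wtPC12, 262 and 309 in hrPC12 and a log2 FC of −1.78 (SE 0.25, adjusted p = 0.00711). Bmp4 had no read in any library.

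Of the 3 activin and inhibin subunits on the list, Inhba and Inha had reads. Inhba, which codes for the subunit of activin A, had no read in either wtPC12 library and 252 and 203 normalized counts in hrPC12. It was removed from the test because one clone was at 0, and was at least 69.2-fold higher in hrPC12, with wtPC12 set to 3 reads per library. When every gene with a read was tested, Inhba entered only through its reads in hrPC12, so that fit adds no support to the difference. Inha, the alpha subunit that turns activins into inhibins, had 329 and 269.9 normalized counts in wtPC12 and 98.2 and 114 in hrPC12 (log2 FC −1.49, SE 0.29, adjusted p = 0.0190). Inha passed the threshold when every gene with a read was tested (adjusted p = 0.00951 by edgeR). Inhbb had no read in any library. A count of 0 allows up to 3 reads, which are 2.54 to 3.49 normalized counts depending on the library.

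None of the 6 receptors tested passed the threshold in edgeR, while 2 (Acvr1b and Acvr2a) had an unadjusted p under 0.05 and DESeq2 called 1 (Acvr1b). Of all 13726 tested genes 13.1% passed and 6357 had such a p, so 6 genes are too few to set the receptors apart. The type I receptor for TGF-beta, Tgfbr1, had 1057 and 1206 normalized counts in wtPC12 and 1060 and 1070 in hrPC12, and Bmpr1a, a type I receptor for BMPs, had 1933 and 3072 against 2629 and 2634. Their log2 FCs were −0.09 (SE 0.20) and 0.07 (SE 0.26), smaller than the spread between the wtPC12 libraries. In Acvr1, another type I receptor, the clones also overlapped (log2 FC −0.12, SE 0.29). The activin receptor Acvr1b had the largest difference of the 6, with 433 and 756 normalized counts in wtPC12 and 236 and 219.6 in hrPC12 (log2 FC −1.38, SE 0.35, adjusted p = 0.0371). The type II receptors Acvr2a and Acvr2b had log2 FCs of −0.77 and −0.73 (adjusted p = 0.106 and 0.395 by edgeR). For Acvr2b the wtPC12 libraries lay on both sides of the hrPC12 libraries, with 73.3 and 259.6 normalized counts against 97.4 and 103.

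Tgfbr2, the type II receptor through which TGF-beta acts, had no read in any of the 4 libraries. No read was found either for 28.6% of all genes listed. The rn4 gene models behind the members without reads were not examined here, so a 0 is a count on the model used and not a measure of the absence of the RNA. Bmpr1b had no read in wtPC12 and 14.4 and 10.1 normalized counts in hrPC12, at least 3.72-fold higher. Acvrl1, a receptor of endothelial cells, had 2 and 7 reads in wtPC12 and 5 and 3 in hrPC12, and the clones overlapped. The coreceptor Tgfbr3 had 4.65 and 9.27 normalized counts in wtPC12 and 0.847 and 0 in hrPC12, too few for the test.

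**Figure D2:**
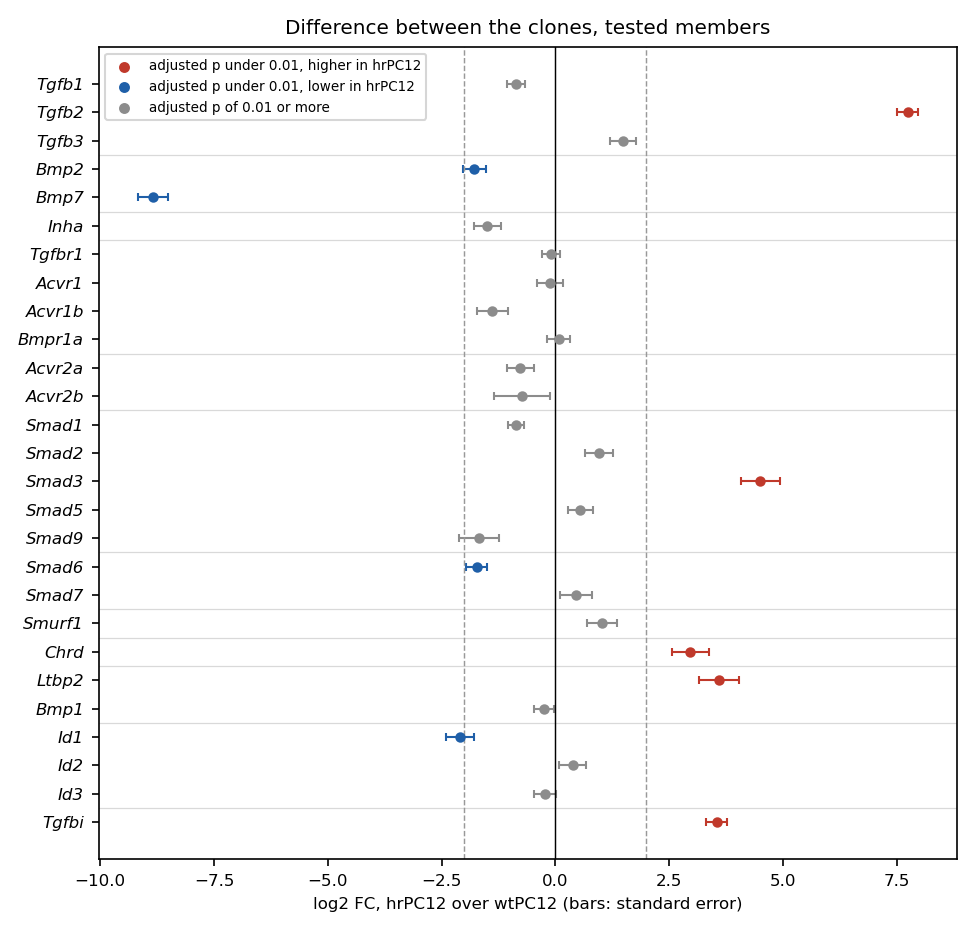
The log2 FC (hrPC12 over wtPC12) of the 27 tested genes with its SE, by role from ligands at the top to targets at the bottom. Red and blue mark an adjusted p under 0.01, grey the other genes, and dashed lines a log2 FC of 2 in either direction; no receptor is marked as past the threshold, and Tgfb2 and Bmp7 lie at the ends with 7.74 and −8.84.

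Of the receptor-regulated Smads only Smad3 passed. It had 25.6 and 53.6 normalized counts in wtPC12 and 869 and 939 in hrPC12, with the clones well apart. The log2 FC was 4.50 (SE 0.43, adjusted p = 0.00228 by edgeR), or 22.7-fold. The wtPC12 libraries set its size, with a log2 FC of 4.04 when wtPC12 replicate 1 was left out and of 5.14 (adjusted p = 0.0140) when wtPC12 replicate 2 was. Smad2, the other Smad downstream of TGF-beta and activin, had 507 and 625 normalized counts in wtPC12 and 1371 and 835 in hrPC12. Its log2 FC of 0.96 (SE 0.31) did not pass the threshold (adjusted p = 0.0708).

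None of the Smads downstream of BMPs passed the threshold in edgeR, in which 2 of the 3 and 32.4% of all tested genes had an adjusted p under 0.05. DESeq2 called Smad1 and Smad9, and 28.3% of all tested genes. Smad1 had 2589 and 2636 normalized counts in wtPC12 and 1354 and 1529 in hrPC12 (log2 FC −0.86, SE 0.17, adjusted p = 0.0202). Smad9 had 532 and 1213 against 274 and 269, a log2 FC of −1.68 (SE 0.44, adjusted p = 0.0398 by edgeR), and the wtPC12 libraries differed from each other more than 2-fold. It passed the threshold without wtPC12 replicate 1 (log2 FC −2.19, adjusted p = 0.00462) and without hrPC12 replicate 1 (adjusted p = 0.00883), but not without wtPC12 replicate 2 (log2 FC −0.97, adjusted p = 0.0435) or hrPC12 replicate 2 (adjusted p = 0.0473). Smad5 had 724 and 1127 normalized counts in wtPC12 and 1446 and 1267 in hrPC12 (log2 FC 0.55, SE 0.28, adjusted p = 0.181). Both hrPC12 libraries lay below those of wtPC12 in Smad1 and Smad9 and above them in Smad5, a lack of overlap shared by 73.5% of all tested genes.

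The inhibitory Smads differed from one another. Smad6, which blocks BMP signaling and is itself a target of it, fell from 1257 and 1296 normalized counts in wtPC12 to 340.3 and 433 in hrPC12, a log2 FC of −1.72 (SE 0.23, adjusted p = 0.00622 by edgeR). It lost the call without wtPC12 replicate 1 (adjusted p = 0.0140), and without wtPC12 replicate 2 as all did. Smad7, which blocks both branches, had 227 and 225 normalized counts in wtPC12 and 390.3 and 225 in hrPC12. One hrPC12 library lay with those of wtPC12, and the log2 FC was 0.45 (SE 0.35, adjusted p = 0.363). Smurf1, the ubiquitin ligase that marks Smad1 and Smad5 for degradation, had 304 and 331 against 814 and 475 (log2 FC 1.02, SE 0.34, adjusted p = 0.0713).

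Smad2, Smad7, Smurf1, Chrd and Id2 each had more reads in hrPC12 replicate 1 than in replicate 2, with ratios of normalized counts from 1.64 to 1.75, whereas the other 21 members looked up had ratios from 0.786 to 1.14. The 5 genes lie in runs of neighbouring genes that share this ratio, found along the rat assembly GRCr8, which is not the build of the counts and where 75.9% of the tested genes could be placed. Smad2 and Smad7 lie in one run of 33 genes with a median ratio of 1.78, and Smurf1, Chrd and Id2 in runs of 30, 54 and 65 genes with medians of 1.82, 1.78 and 1.82. In all, 1193 of 8985 genes lay in 40 such runs. The reason for the runs was not tested. With hrPC12 replicate 1 scaled down in the runs, the log2 FC was 0.52 for Smad2, 0.55 for Smurf1 and 2.50 for Chrd, and for Smad7 and Id2 it turned to −0.01 and −0.08.

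**Figure D3:**
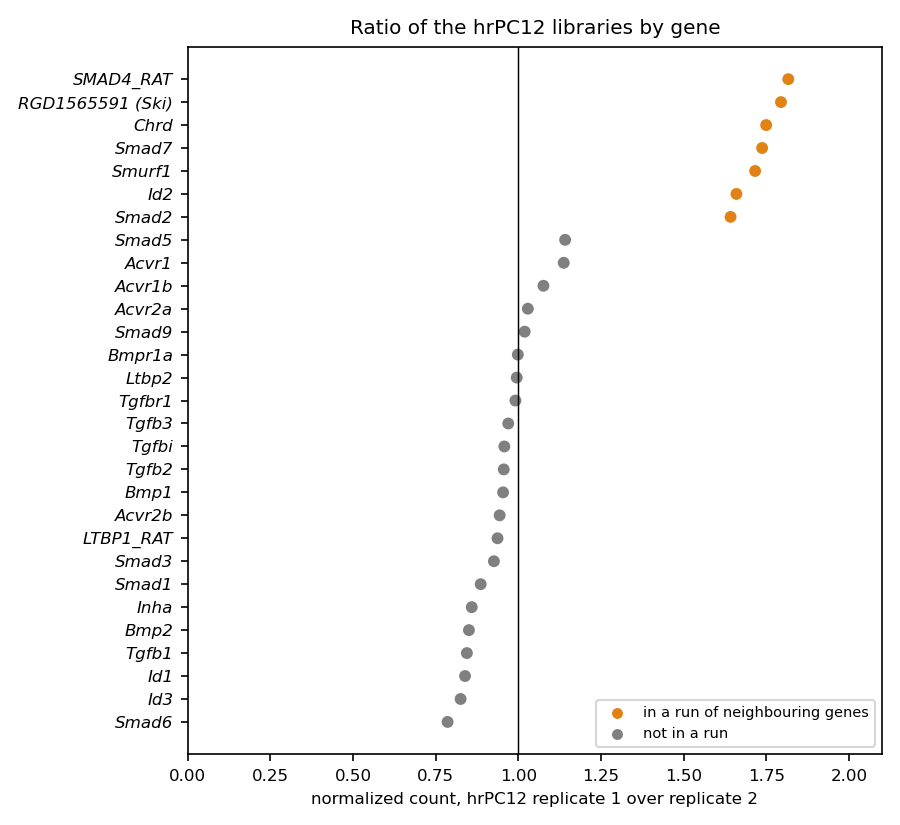
Ratio of the normalized counts of hrPC12 replicate 1 to those of replicate 2 for 26 members and 3 related rows, in order of the ratio. Genes in runs of neighbouring genes (orange) stand apart at 1.64 or more, and the others (grey) lie at 1.14 or less.

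The secreted BMP antagonist Chrd (chordin), which holds BMPs away from their receptors, rose in hrPC12. It had 81.4 and 117 normalized counts in wtPC12 and 989.6 and 566 in hrPC12, the higher of which is the library with more reads across its run. The log2 FC was 2.96 (SE 0.41, adjusted p = 0.00665 by edgeR), or 7.81-fold, and with replicate 1 scaled in the runs the call was kept. It was lost without wtPC12 replicate 1 (log2 FC 2.69, adjusted p = 0.0185). Nog and Fst, the antagonists of BMPs and of activins, had no read in any library.

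Of the genes listed under latency and processing, Ltbp2, a matrix protein of the family named for latent TGF-beta binding, rose from 6.98 and 5.15 normalized counts to 74.5 and 74.9. Whether it holds a ligand was not tested. Its log2 FC was 3.60 (SE 0.44, adjusted p = 0.00478 by edgeR), and the call was lost without wtPC12 replicate 1 (adjusted p = 0.0135). Bmp1, a protease that cleaves chordin and procollagens and is no BMP ligand, had 1618 and 2243 against 1581 and 1657 normalized counts (log2 FC −0.25, SE 0.22). Its clones overlapped.

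The Id genes code for inhibitors of DNA binding that hold back basic helix-loop-helix factors, and only Id1 passed. It had 14818 and 8720 normalized counts in wtPC12 and 2495 and 2975 in hrPC12. Both hrPC12 libraries lay below both of wtPC12, although the wtPC12 libraries also differed. The log2 FC was −2.11 (SE 0.31, adjusted p = 0.00800 by edgeR), or 4.30-fold lower in hrPC12. It came within the threshold of 2 without wtPC12 replicate 1 (−1.70) and without hrPC12 replicate 1 (−1.98). Id2 had 2587 and 1972 normalized counts in wtPC12 and 3696 and 2227 in hrPC12 (log2 FC 0.38, SE 0.30, adjusted p = 0.367), with overlap. Id3 had 5902 and 4151 against 3892 and 4717 (log2 FC −0.22, SE 0.24, adjusted p = 0.491), also with overlap. Id4 had 1 read in hrPC12 replicate 1 and none elsewhere.

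Of the matrix targets of TGF-beta on the list, 1 could be tested. Tgfbi, a secreted adhesion protein named for its induction by TGF-beta, had 122 and 115 normalized counts in wtPC12 and 1354 and 1415 in hrPC12. Its log2 FC was 3.54 (SE 0.23, adjusted p = 0.000776 by edgeR), or 11.6-fold, and it lay between 3.46 and 3.57 with a library left out. Ctgf, the connective tissue growth factor, had 1 read in hrPC12 replicate 2 and none in the other libraries.

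The promoters of Smad3, the Smad that rose, and of Id1, the Id gene that fell, are shown. Chrd, Ltbp2 and Tgfbi were tried as well, but too few bases of their entries lay before the annotated gene. Smad3 and Id1 are those left, and were not picked for a contrast in composition. RefSeq holds a promoter entry for 37 of the 47 genes, of which 36 have 1 entry. The bases shown lie before the annotated start of the gene in GRCr8, 5′ to 3′ on the strand of the gene (Smad3, chr8:73132325-73132574, minus strand, and Id1, chr3:161671314-161671524, plus strand). Capitals mark TATAAA, the letters of the TATA box, in either orientation.
Smad3: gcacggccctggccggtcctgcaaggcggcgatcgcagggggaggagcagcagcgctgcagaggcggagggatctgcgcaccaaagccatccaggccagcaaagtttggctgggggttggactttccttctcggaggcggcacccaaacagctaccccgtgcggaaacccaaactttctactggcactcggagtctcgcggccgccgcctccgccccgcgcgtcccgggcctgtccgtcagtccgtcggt
Id1: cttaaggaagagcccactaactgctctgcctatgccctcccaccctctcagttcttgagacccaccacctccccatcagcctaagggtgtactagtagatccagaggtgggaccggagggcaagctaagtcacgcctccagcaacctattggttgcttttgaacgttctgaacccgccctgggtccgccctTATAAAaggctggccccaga

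The Smad3 stretch has 68.4% G and C and 25 CG pairs in 250 bases, and that of Id1 56.4% and 5 CG pairs in 211 bases. Each motif was searched in the first 250 bases of a promoter entry. For Id1, 211 of those bases lie before the annotated gene. In other entries too, among them Chrd, Ltbp2 and Tgfbi, the bases searched reach into the gene. TATAAA was found in 4 of the 36 (Id1, Bmpr1a, Inhba and Smad4) and in 12.9% of the 33469 promoters. GGCGCC, the GC-rich element bound by BMP-activated Smads, was found in 11 of the 36, among them Chrd, Tgfbi, Tgfbr1 and Smad7, and in 8.69% of all. The median share of G and C was 63.8% in the 36 promoters and 51.2% in all. CAGACA, which holds the AGAC core bound by Smad3 and Smad4, was in 3 of the 36 (Smad9, Inha and Bmp4) and in 17.2% of all. The left and right parts of RE1, the element bound by REST, were searched as CAGCACC, found in 1 of the 36 (Id4) and 5.43% of all, and GGACAGC, found in 2 (Skil and Ltbp2) and 5.30% of all. All motifs were searched on both strands, none holds another, and a match is a description of these letters only.

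Smad4, Ltbp1, Grem1 and Ski are not listed under these names, but 4 rows carry related names. The row SMAD4_RAT, by its name that of the common partner of all receptor-regulated Smads, had 435 and 773 normalized counts in wtPC12 and 2105 and 1159 in hrPC12 (log2 FC 1.43, SE 0.42, adjusted p = 0.0548). It lies in the run of Smad2 and Smad7, and its log2 FC was 0.97 with replicate 1 scaled. DESeq2 called it (adjusted p = 0.00334). The row RGD1565591, which RefSeq gives as an older name of the corepressor gene Ski, had 109 and 228 against 1091 and 608 (log2 FC 2.33, SE 0.49, adjusted p = 0.0230 by edgeR). It too lies in a run, and its log2 FC was 1.86 with replicate 1 scaled (adjusted p = 0.0259). It passed the threshold with RLE factors (adjusted p = 0.00669), library totals alone (0.00916), every gene tested (0.00548) and DESeq2 (7.10e-06), and without either hrPC12 library (0.00318 and 0.00342). It did not pass with filterByExpr (adjusted p = 0.0219), with the legacy option off (0.0214), without wtPC12 replicate 1 (0.0407) or without wtPC12 replicate 2 (log2 FC 2.96, adjusted p = 0.0493).

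The row LTBP1_RAT, by its name a protein that holds latent TGF-beta in the matrix, had 4 reads in each wtPC12 library, or 4.65 and 4.12 normalized counts, and 3972 and 4240 normalized counts in hrPC12. Its log2 FC of 9.83 (SE 0.27, adjusted p = 0.000243 by edgeR) is larger in size than that of every tested member. The row reached the minimum mean only through its reads in hrPC12, so that p adds no support to the difference. GREM1_RAT had no read. For the other 5 genes, Bmp6, Bmpr2, Eng, Smurf2 and Skil, counts were not analysed here.

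Genes of the pathway outside the list of 47 were looked up from a list of 84, of which 72 were found and 43 tested. Of the 43, 7 rose in hrPC12 and 4 fell with an adjusted p under 0.01 (edgeR), where 5.94% and 7.14% of all tested genes did. This list too was chosen with earlier results known, so its shares are no evidence about the pathway. Among the 7, Chrdl1, Rgma, Col1a1, Col1a2 and Fn1 reached the minimum mean only through hrPC12. DESeq2 called 11 higher in place of 7 and 6 lower in place of 4. Over all 13726 tested genes it called 1885 higher in place of 816 and 1928 lower in place of 980. The median log2 FC of the 43 was 0.50 against 0.06 for all tested genes.

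Among these genes Bambi, a decoy receptor without a kinase, fell from 3119 and 1976 normalized counts in wtPC12 to 122 and 105 in hrPC12 (log2 FC −4.48, SE 0.33, adjusted p = 0.00108). The other genes that fell were Fbn1 (log2 FC −4.22), which codes for the microfibril protein that anchors latent TGF-beta, Foxh1 (−2.62), a partner of Smad2 and Smad3 on DNA, and Furin (−1.25), the protease that cuts the ligand precursors. Without wtPC12 replicate 1, Foxh1 and Furin lost the call (adjusted p = 0.0135 and 0.0132), and Furin also without either hrPC12 library (0.0342 and 0.0273). Fbn1 had a log2 FC of −3.58 without wtPC12 replicate 2, where all calls were lost. Dcn, decorin, which binds TGF-beta, was among the 3 lowest with 36.1 and 21.6 normalized counts in wtPC12 and 2.54 and 4.05 in hrPC12, but did not pass (log2 FC −3.10, SE 0.60, adjusted p = 0.0182). It passed in edgeR with RLE factors (adjusted p = 0.00890) and with every gene tested (0.00872), but not in DESeq2 (0.0214). Dcn reached the minimum mean only through wtPC12, so these p values add no support to the difference.

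Of 31 other pathway genes looked up in the search for runs, 3 lay in runs. Chrdl1, a secreted relative of chordin, had 4.65 and 0 normalized counts in wtPC12 and 933 and 531 in hrPC12 (log2 FC 8.29, SE 0.90, adjusted p = 0.00323). With hrPC12 replicate 1 scaled in the runs, the log2 FC of Chrdl1 was 7.83 (adjusted p = 0.00349 by edgeR). Without wtPC12 replicate 1 it could not be tested, since no read was left in that clone, and without wtPC12 replicate 2 its log2 FC was 7.26. Rgma, a BMP coreceptor, had 1 read in wtPC12 and 58.4 and 49.6 normalized counts in hrPC12, a ratio of summed counts of 99.6 with a counting interval from 17.5 to 3965. Its fitted log2 FC of 6.33 was 5.40 without wtPC12 replicate 2, and without replicate 1 it could not be tested. Chrdl1 and Rgma reached the minimum mean only through hrPC12, so their p values add no support to the differences.

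The corepressors Tgif1 and Tgif2 (the latter listed as RGD1564927) had log2 FCs of 2.18 and 2.33 (SE 0.30 and 0.32), and Tgif2 lost the call without wtPC12 replicate 1 (adjusted p = 0.0155). Of the 8 other TGF-beta-induced genes tested, the matrix genes Col1a1, Col1a2 and Fn1 rose, where 5.94% of all tested genes did, and the other 5 did not pass. Col1a1 and Col1a2 are also among the fibroblast and mesenchymal markers, whose part in this was not tested. Col1a1, Col1a2 and Fn1 reached the minimum mean only through hrPC12, so their p values add no support to the differences. Fn1, fibronectin, had 0 and 2.06 normalized counts in wtPC12 and 183 and 175 in hrPC12, a ratio of 164 with a counting interval from 45.1 to 1360. Its fitted log2 FC of 7.21 was 6.33 without wtPC12 replicate 1, and without replicate 2 it could not be tested. Col1a2 had 5.82 and 0 normalized counts against 334 and 341 (log2 FC 6.87, or 5.83 without wtPC12 replicate 2), and could not be tested without replicate 1. Col1a1 (log2 FC 4.71) had a log2 FC of 3.95 without wtPC12 replicate 1, where the call was lost (adjusted p = 0.0118), and 6.49 without wtPC12 replicate 2.

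**Figure D4:**
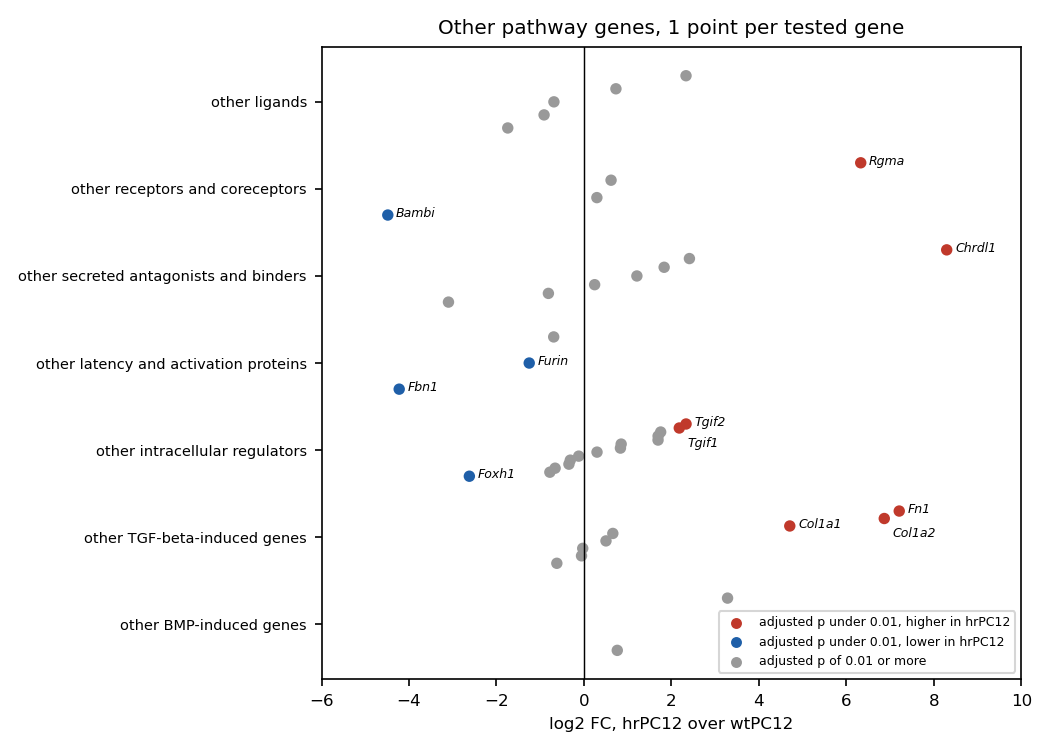
The log2 FC (hrPC12 over wtPC12) of the 43 tested pathway genes outside the list, 1 point per gene, by role, with red and blue for an adjusted p under 0.01. Chrdl1, Rgma and the matrix genes lie at the right, and Bambi at −4.48 lies at the left.

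With DESeq2, 9 members were called lower in place of 4 and 6 higher in place of 5, while over all 13726 genes it called 1928 lower in place of 980 and 1885 higher in place of 816. The members it added were Tgfb1, Inha, Acvr1b, Smad1 and Smad9 among the lower and Tgfb3 among the higher. All 9 calls of edgeR were kept with RLE factors, library totals alone, every gene tested, edgeR's filterByExpr, DESeq2, the legacy option off and replicate 1 scaled in the runs. With every gene tested, edgeR also called Tgfb3 (adjusted p = 0.00745) and Inha (0.00951), where 16.6% of 18416 genes were called.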

How the data were processed

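RNA of wtPC12 and hrPC12 was sequenced on the Illumina HiSeq 2000 (TruSeq libraries). The authors aligned the reads to rn4 (RGSC3.4) with TopHat and deposited 1 raw read count per gene and library, not normalized or filtered, and the submitters' processing notes name TopHat2 2.0.4, HTSeq 0.5.3 and DESeq 1.9.12. Strand use in counting is not given in the sources used here. The closing rows that name no gene (58.7% to 62.1% of reads accounted for) were left out of library sizes. A deposited table of DESeq means, fold changes and p values was not used.

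TMM factors (0.942 to 1.05) scaled the counts, which were tested with edgeR 4.0.16 (glmQLFit with the legacy option on, glmQLFTest) in R 4.3.3, in place of DESeq, for genes whose normalized counts averaged 5 or more and that had a read in each clone, after the filter in the study's methods. The common dispersion was 0.0745, and Benjamini-Hochberg adjustment covered all tested genes. Calls are at an adjusted p under 0.01, with a log2 FC past 2 where said. Permutation of 2 against 2 libraries cannot give a 2-sided p under 0.333, so the spread was shared across genes. The libraries of a clone differed by more than the counting noise expected of repeated copies of 1 library (chi-square per degree of freedom 82.4 and 59.4), which does not show that they are separate cultures. They entered as 2 because the labels list them as 2 samples. Runs are stretches of at least 5 genes whose median log2 ratio of the hrPC12 libraries, over 7 neighbours with at least 50 normalized counts in hrPC12, exceeds 0.4 above the median of all.

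Members and lists were chosen with earlier results of these data known. Values are given in every library for members with an adjusted p under 0.01, a log2 FC past 2 or more than 3 reads when untested, and for Smad3 and the Id genes, and other members were added after their values were seen. Of other pathway genes, those called and the 3 lowest and highest log2 FCs are named. Alternatives tried were RLE factors, library totals alone, no filter, filterByExpr, DESeq2 1.42.0, the legacy option off, an adjusted p under 0.05, the runs scaled and each library left out. Counting members outside the runs was added after the data were seen. The tests and the search for runs were tested on simulated data.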

Additional observations from a re-analysis of the deposited data

How the results depend on the processing

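With DESeq2 or an adjusted p under 0.05, 9 members were lower in hrPC12 in place of 4, and 11 and 16 other pathway genes were higher in place of 7, with 6 and 9 lower in place of 4. Of all tested genes, 28.3% and 32.4% were then called in place of 13.1%. With 1 library left out in turn, the members called ranged from 0 to 5 higher and 0 to 5 lower, those also past a log2 FC of 2 from 0 to 5 and from 0 to 2, and the other pathway genes from 0 to 9 higher and 0 to 3 lower. In the same fits, 0 to 1157 of all tested genes were called higher and 0 to 1035 lower, or 0% to 15.9% in all. Every 0 is from edgeR without wtPC12 replicate 2, where 6798 genes of the whole table had an unadjusted p under 0.05 and DESeq2 called 3593. There 16 other pathway genes were higher and 10 lower at an unadjusted p under 0.05, and DESeq2 called 11 and 5. Rest, which missed the threshold, passed it with RLE factors (log2 FC 3.38), library totals alone (3.46), every gene tested (3.42), DESeq2 (3.39), the legacy option off (3.41) and an adjusted p under 0.05 (3.42). It missed it with filterByExpr (adjusted p = 0.0111), with the runs scaled (0.0130) and without wtPC12 replicate 2 (0.0140), and passed it with any 1 of the other libraries left out. Its log2 FC was 2.80 (without wtPC12 replicate 1) to 4.44 (without wtPC12 replicate 2) with a library left out. Of the 22 tested members not found in runs, 4 were called higher and 4 lower, beside 13.1% of all tested genes, in runs or not. The 22 include Bmp7, among the lower, which had too few reads in hrPC12 to be looked up in the search. The share called among all genes outside the runs was not computed, so these counts say nothing particular of the members. Among members that were not called, the sign changed for Smad7 (−0.011) and Id2 (−0.085) with replicate 1 scaled in the runs. With a library left out, the log2 FC spanned 0 for Tgfbr1 (−0.21 to 0.0099), Acvr1 (−0.39 to 0.17), Bmpr1a (−0.25 to 0.44), Acvr2b (−1.40 to 0.45), Smad7 (−0.0068 to 0.74), Bmp1 (−0.50 to 0.00073), Id2 (−0.033 to 0.65) and Id3 (−0.46 to 0.025). The cause was not tested. No paired analysis was possible because the labels give the clones 1 replicate letter in common, and the replicate numbers used here only name the libraries. Depth, and gene models that were not examined here, limit what can be said of the 4 members under the minimum mean and of the 5 without reads.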
